A study of Mus musculus with 63 samples.

Results

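Secretory cells of the intestinal epithelium are specified by a small set of transcription factors, and 9 of them were followed here in tumours of the mouse small intestine: *Atoh1*, *Gfi1*, *Spdef*, *Creb3l4*, *Foxa2*, *Neurog3*, *Neurod1*, *Insm1* and *Pax4*. They were chosen by symbol from a table of 24766 genes, and all 9 were present. Tumours came from 2 mice of an Apchet model carrying the Confetti reporter (Villin-creER;*Apc* fl/+;Rosa fl/Confetti). Tamoxifen (4 mg, given after 8 weeks of age) activated Cre under the Villin promoter, which removed 1 *Apc* allele from the intestinal epithelium and switched on a fluorescent colour in scattered crypts. Every animal then received the mutagen N-ethyl-N-nitrosourea (ENU, 200 mg per kg, 10 days after tamoxifen), so no library is free of the *Apc* deletion or of ENU. RNA was sequenced from polyadenylated transcripts of whole pieces of dissected tumour, in 63 libraries.

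In 20 heterotypic tumours, which hold cells of more than 1 colour, dissection separated a larger clone, called major, from a smaller one, called minor, giving 20 major and 20 minor libraries, 10 of each from each mouse. The labels pair the clones by tumour number, and the classes major and minor were taken from the study's source data. A further 23 tumours (10 female, 13 male) were sequenced undivided. The design text counts 20 monoclonal tumours without saying which of the 23 these are, so all 23 were used and are called undivided. Both mice have undivided tumours numbered 1 to 10, and the male mouse also has 15, 17 and 18. Whether those lie outside the 20 is not stated. Libraries carry a segment of the small intestine: SI10 (7 major, 8 minor and 12 undivided), SI20 (11, 10 and 11) or SI30 (2, 2 and 0, all from the female mouse). Tumour 22 of the female mouse was labelled SI20 for its major and SI10 for its minor clone. With 1 female and 1 male animal, mouse and sex cannot be told apart, and p-values describe the spread between tumours of these 2 mice.

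In a healthy crypt, a progenitor that escapes Notch signalling turns on *Atoh1*, the basic helix-loop-helix factor required for all secretory cells, while its Notch-activated neighbours express *Hes1* and become absorptive enterocytes. Downstream of *Atoh1*, the zinc-finger repressor *Gfi1* favours goblet and Paneth over enteroendocrine fate, *Spdef* drives goblet and Paneth maturation, and *Neurog3* commits a small number of cells to the hormone-producing enteroendocrine lineage, where *Neurod1*, *Insm1* and *Pax4* act after it. *Foxa2* is a forkhead factor of endodermal epithelium that takes part in goblet and enteroendocrine differentiation, and *Creb3l4* is a membrane-bound factor of the CREB3 family, related to the factors that adjust the endoplasmic reticulum to secretion.

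The values are normalised counts, the authors' read estimates per gene after scaling between libraries. Depth was estimated at about 13083400 to 52169200 reads per library (median 32726300). The samples were epithelial by their markers: all 9 epithelial genes examined were above 0 in every library, the lowest value being 1268 for *Cdx2*. Genes of other tissue were present too, with summed normalised counts of 1800 to 41359 for 15 stroma and muscle genes, 602 to 11390 for 6 endothelial genes and 1368 to 35953 for 17 immune genes. The sum of 4 gastric and Brunner gland genes ranged from 325 to 28297. Of these genes, 1 of the stroma list, 4 of the immune list and 1 of the gastric list were at 0 in some library, and 0 were at 0 in all. In bulk tissue, fewer cells of a type and less RNA per cell cannot be told apart.

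Results turned on 4 of the factors. Their promoters are shown as the 250 bases before the outermost annotated start in GRCm39 (Gencode M39), 5′ to 3′ on the gene's strand: *Atoh1* (chr6:64705859-64706108, plus strand) and *Neurog3* (chr10:61968612-61968861, plus), which were higher in major clones, and *Spdef* (chr17:27947930-27948179, minus) and *Creb3l4* (chr3:90150846-90151095, minus), which moved together. No annotated exon overlaps these windows. Capitals mark motifs found on either strand.
Atoh1: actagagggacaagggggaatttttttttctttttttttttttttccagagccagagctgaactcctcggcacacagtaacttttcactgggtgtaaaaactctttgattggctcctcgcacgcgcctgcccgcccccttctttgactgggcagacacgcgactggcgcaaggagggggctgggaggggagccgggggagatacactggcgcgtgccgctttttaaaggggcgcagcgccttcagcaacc
Neurog3: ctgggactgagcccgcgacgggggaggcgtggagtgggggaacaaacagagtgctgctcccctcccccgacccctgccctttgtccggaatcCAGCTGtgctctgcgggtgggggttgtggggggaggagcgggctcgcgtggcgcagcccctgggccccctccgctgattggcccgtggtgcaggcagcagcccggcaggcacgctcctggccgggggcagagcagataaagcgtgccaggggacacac
Spdef: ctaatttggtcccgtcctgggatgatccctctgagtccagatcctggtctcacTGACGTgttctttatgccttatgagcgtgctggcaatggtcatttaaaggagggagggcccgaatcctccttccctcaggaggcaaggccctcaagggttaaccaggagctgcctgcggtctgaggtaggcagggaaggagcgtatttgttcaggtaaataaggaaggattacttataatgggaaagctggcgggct
Creb3l4: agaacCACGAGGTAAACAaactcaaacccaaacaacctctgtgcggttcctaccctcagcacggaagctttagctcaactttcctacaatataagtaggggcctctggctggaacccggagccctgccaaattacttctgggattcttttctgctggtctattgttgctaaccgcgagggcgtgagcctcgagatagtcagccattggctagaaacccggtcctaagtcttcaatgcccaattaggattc
The letters searched were CAGCTG and CAGATG (E-boxes, the elements bound by helix-loop-helix factors), CACGAG (a Hes element), TGTTTAC (a forkhead element) and TGACGT (a CREB element). *Neurog3* held CAGCTG 158 bases before its start, an element present in 12.0% of 21757 promoters of protein-coding genes. *Spdef* held TGACGT 197 bases before its start (5.95% of promoters). *Creb3l4* held CACGAG (5.24%) at 245 bases, directly followed at 239 bases by TGTTTAC on the reverse strand (2.97%). Among the promoters not printed, that of *Gfi1* held CACGAG and that of *Neurod1* held CAGATG (13.8%), while the windows of *Atoh1*, *Foxa2*, *Insm1* and *Pax4* held none of the 5. These matches describe letters and not bound sites.

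Levels per kilobase of exon spread over more than 2 orders of magnitude. *Spdef* was the highest with a mean normalised count per kilobase of 364 ± 234 (SD, n = 63), followed by *Creb3l4* (233 ± 174), *Foxa2* (130 ± 59.6) and *Atoh1* (84.7 ± 34.6). A wide step separated these from *Gfi1* (12.5 ± 8.10), *Insm1* (10.8 ± 5.90), *Neurod1* (8.49 ± 5.31) and *Neurog3* (7.61 ± 8.28), and *Pax4* stood last (1.16 ± 1.45). *Atoh1* exceeded *Gfi1* in 63 of 63 libraries and *Spdef* exceeded *Creb3l4* in 60. Other neighbours changed places more often, since *Creb3l4* exceeded *Foxa2* in 42 libraries, *Foxa2* exceeded *Atoh1* in 43, *Gfi1* exceeded *Insm1* in 37 libraries, *Insm1* exceeded *Neurod1* in 39 and *Neurod1* exceeded *Neurog3* in 37. The ranges of these neighbours overlapped.

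Some of these levels carry a limit from the annotation. *Neurog3* (chr10:61968862-61970766, 2 exons) shares 797 of its 1905 exon bases with *Fam241b* on the opposite strand, which was far more abundant (mean normalised count 330 against 14.5). The library kit keeps strand, but the strand setting of the counting is not given in the sources used here. *Fam241b* differed between major and minor clones by a log2 of -0.0024 (SE 0.07, limma adjusted p = 0.989). *Creb3l4* shares 241 of 2411 exon bases with *Jtb*, *Gfi1* shares 327 of 3187 with *A430072P03Rik*, and *Neurod1* shares 204 of 3040 with *Cerkl* on its own strand. *Atoh1* (chr6:64706109-64708229) has a single exon and shares none, and no shared exon bases were found for *Spdef*, *Foxa2*, *Insm1* or *Pax4*.

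**Figure D1:**
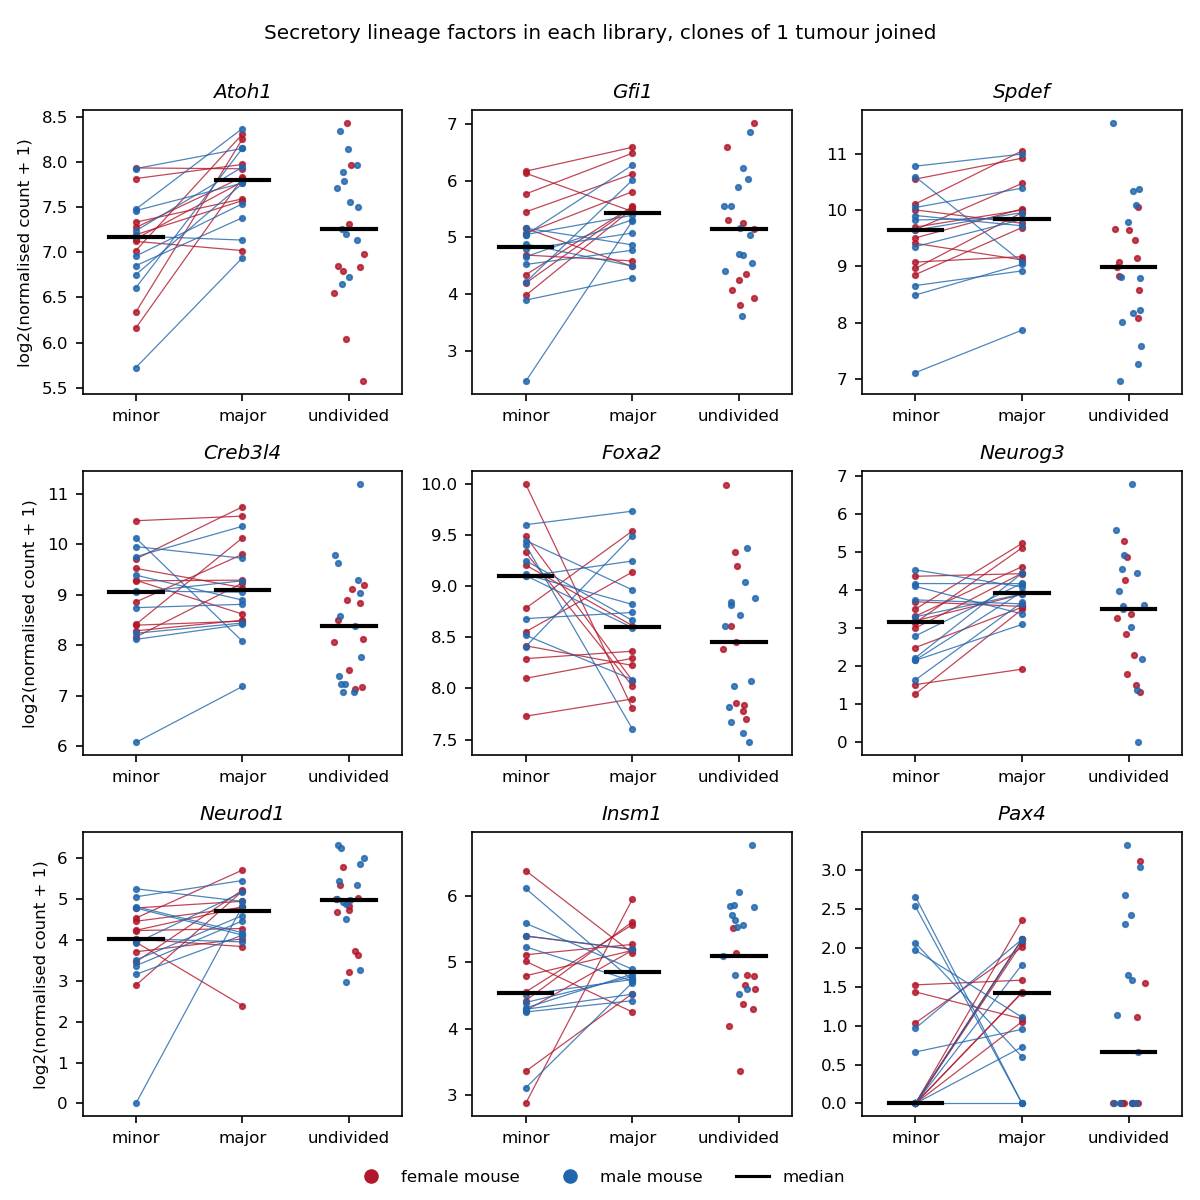
Level of each factor as log2(normalised count + 1) in 20 minor clones, 20 major clones and 23 undivided tumours. Points are libraries coloured by mouse, lines join the clones of a tumour and black bars are medians. Most lines climb from minor to major for Atoh1 (17 of 20) and Neurog3 (15 of 20), the groups overlap in every panel, and 25 of 63 libraries sit at 0 for Pax4.

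The dissected clones ask whether the larger and the smaller clone of the same tumour differ in secretory specification. *Atoh1* and *Neurog3* were higher in major clones, with log2 differences of 0.69 and 0.92 on log2(normalised count + 1), a scale that understates changes of low genes. They were the 2 of 8 factors called (limma with tumour as a block, Benjamini-Hochberg adjusted p below 0.05 over 16428 genes), where 1.14% of all genes tested were called and 0.67% were called higher in major clones. Of the 8 factors, 7 had a positive difference, with a median of 0.46 against 0.01 over all genes. At an unadjusted p below 0.05 the count was 5 of 8, against 22.4% of all genes. *Pax4* was below the filter of a mean of 10, and *Neurog3* passed it only through its level in major clones. Without the filter *Neurog3* was not called by limma.

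*Atoh1*, at the head of the lineage, ranged from 122 to 331 normalised counts in major clones (median 223) and from 51.8 to 244 in minor clones (median 143). The ranges overlapped, but within tumours the major clone was higher in 17 of 20. The largest differences were log2 1.92 in female tumour 22, whose clones carry different segment labels, 1.66 in female tumour 20 and 1.55 in male tumour 20, and of the 3 tumours in the other direction the most extreme was -0.10. The mean was 225 ± 60.4 (SD, n = 20) in major and 144 ± 52.4 (n = 20) in minor clones, a log2 difference of 0.69 (95% interval 0.42 to 0.95, SE 0.13, limma adjusted p = 0.0207). Swapping the clone labels within tumours gave a two-sided permutation p of 5.00e-05. *Atoh1* is a gene the study itself displayed for these clones, so its direction is not independent evidence. The call held when any of the 20 tumours was left out (log2 0.62 to 0.73, adjusted p = 0.0139 to 0.0461).

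*Gfi1*, a target of *Atoh1* that shapes the choice between secretory fates, ranged from 18.5 to 95.2 normalised counts in major clones (median 41.9) and from 4.49 to 70.9 in minor clones (median 27.6). The major clone was higher in 15 of 20 tumours. The log2 difference of 0.61 (SE 0.20, interval 0.21 to 1.02) did not pass (limma adjusted p = 0.0792). It rested in part on male tumour 19, where it was 2.83 and the minor clone had the lowest *Gfi1* level of all. Of 20 fits that each left out 1 tumour, *Gfi1* was called in 1 (adjusted p up to 0.143). That fit lacked female tumour 19, where the difference was -0.67 (log2 0.68, limma adjusted p = 0.0448). Over the 20 fits the number of all genes called ranged from 25 to 859, against 188 with every tumour.

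The goblet and Paneth factors did not pass. *Spdef* ranged from 232 to 2122 normalised counts in major clones (median 919) and from 137 to 1758 in minor clones (median 802), and the major clone was higher in 16 of 20 tumours. The log2 difference was small (0.28, SE 0.12, interval 0.03 to 0.53, limma adjusted p = 0.168). Male tumour 28 stood against the others with a *Spdef* difference of -1.51, and without it *Spdef* was called (log2 0.37, adjusted p = 0.0442). This was the 1 call in 20 fits that each left out 1 tumour (adjusted p up to 0.238), over which 25 to 859 of all genes were called.

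*Creb3l4* ranged from 145 to 1708 normalised counts in major clones (median 547) and from 66.6 to 1411 in minor clones (median 533), and was higher in the major clone of 14 of 20 tumours. Its log2 difference was 0.19 (SE 0.17, interval -0.15 to 0.54, limma adjusted p = 0.524), with -0.03 in the male mouse alone. Male tumour 28 again lay apart, with a *Creb3l4* difference of -2.04. *Foxa2* was the only factor with a negative difference. It ranged from 194 to 850 in major clones (median 388) and from 211 to 1023 in minor clones (median 548), and the major clone was lower in 11 tumours and higher in 9. The log2 difference of -0.33 (SE 0.17, interval -0.69 to 0.03) did not pass (adjusted p = 0.266), and the extreme tumours were female 26 (-2.19) and male 29 (-1.80).

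Among the enteroendocrine factors, *Neurog3* ranged from 2.81 to 36.8 normalised counts in major clones (median 14.3) and from 1.43 to 22.3 in minor clones (median 8.05). The ranges overlapped widely, yet the major clone was higher in 15 of 20 tumours, by a log2 of 1.97 to 2.23 in 4 of them (female 23 and 27, male 25 and 27). Mean levels were 16.3 ± 8.27 and 8.90 ± 6.12 (SD, n = 20 each), and the log2 difference was 0.92 (interval 0.47 to 1.38, SE 0.22, limma adjusted p = 0.0438, permutation p = 0.000540). These levels correspond to an estimated median of 15.9 reads in major and 9.33 in minor libraries. The call was lost when any of 12 tumours was left out (female 22, 24, 26, 28 and 30, male 19, 20, 22, 25, 26, 27 and 29), with an adjusted p of up to 0.0818, while the log2 difference stayed between 0.86 and 1.01 over all 20.

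The factors that follow *Neurog3* did not pass. *Neurod1*, which carries enteroendocrine precursors towards hormone production, ranged from 4.25 to 51.4 normalised counts in major clones (median 25.03) and from 0 to 37.2 in minor clones (median 15.3), with a log2 difference of 0.64 (SE 0.29, interval 0.05 to 1.24, limma adjusted p = 0.189). The major clone was higher in 14 of 20 tumours, and male tumour 19, whose minor clone was at 0, contributed a difference of 4.83. *Insm1*, a zinc-finger repressor of neuroendocrine cells, ranged from 18.1 to 60.8 in major clones (median 28.1) and from 6.32 to 82.6 in minor clones (median 22.2), and the major clone was higher in 13 of 20 tumours. Its log2 difference was 0.30 (SE 0.23, interval -0.17 to 0.77, adjusted p = 0.449).

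*Pax4*, a paired-box factor of serotonin- and somatostatin-producing lineages, had a mean normalised count of 1.68 over all libraries and was listed at 0 in 25 of 63. It was at 0 in 3 of 20 major and 11 of 20 minor clones. In the female mouse it was at 0 in 0 of 10 major and 7 of 10 minor clones, and in the male mouse in 3 of 10 and 4 of 10. Tested without the filter on low values, its log2 difference was 0.59 (SE 0.32, interval -0.08 to 1.26, limma adjusted p = 0.362).

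**Figure D2:**
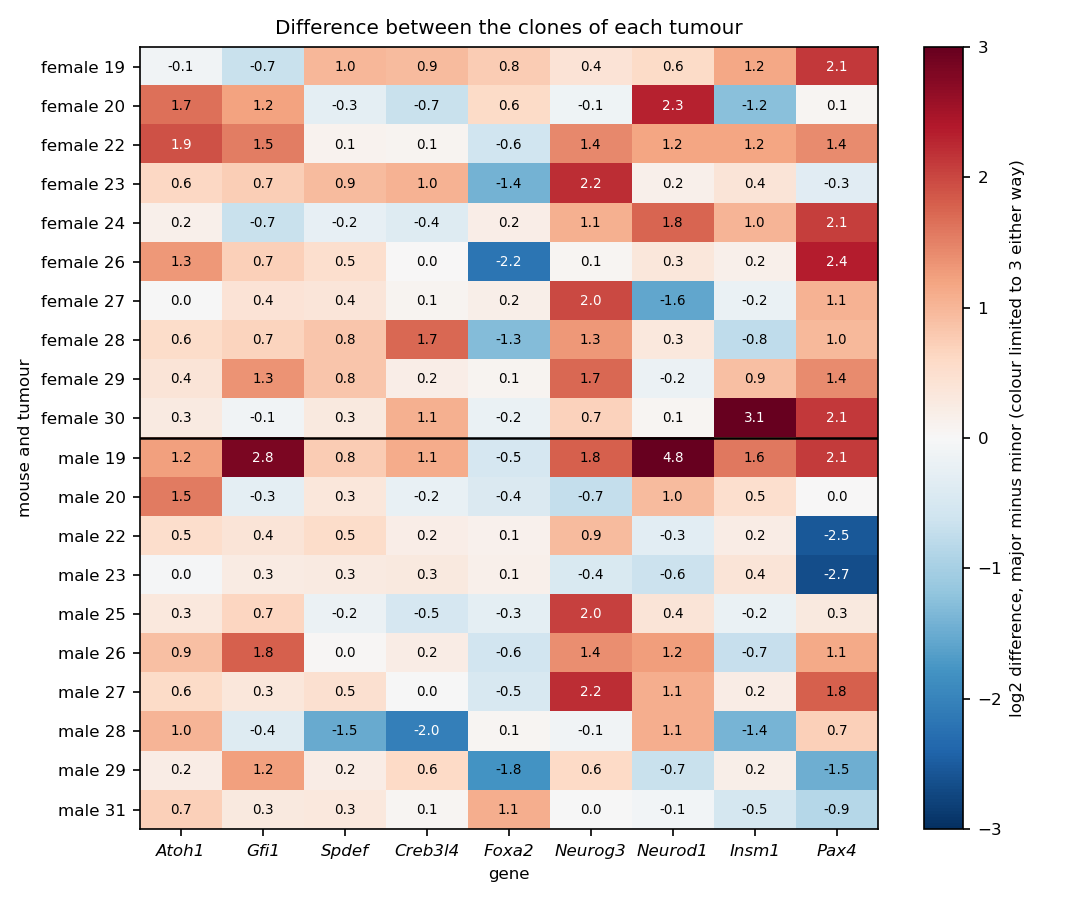
Difference between the clones of each tumour as a heat map, with 20 tumours in lines and 9 factors in columns, giving the log2 of (normalised count + 1) of the major minus the minor clone. Red is higher and blue lower in the major clone, with colour limited to 3 either way, and a black line separates the mice. Atoh1 is red or near white throughout, male tumour 19 holds the highest value (Neurod1, 4.83), and male tumour 28 holds the lowest of Spdef and Creb3l4.

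Tumours differed in how many factors were higher in the major clone. Of the 8 factors without *Pax4*, 7 were higher in 6 tumours, 6 in another 6, 5 in 4 tumours, 4 in 3 tumours and 3 in 1 tumour. No tumour had all 8 higher. Male tumour 19 moved most as a block, with differences of 1.22 for *Atoh1*, 1.79 for *Neurog3* and 1.59 for *Insm1* beside its extreme *Gfi1* and *Neurod1* values, and of the 8 factors *Foxa2* alone was lower (-0.51). Of the 10 male minor clones, its own had the highest share of 18S ribosomal RNA (14.2%). It also had the lowest summed goblet (31531), enteroendocrine (3101), tuft (1720) and immune genes (1368), but not the lowest summed epithelial genes. The part of this in the differences was not tested. Male tumour 28 split instead. Its major clone was higher for *Atoh1* (1.01) and *Neurod1* (1.10) and lower for *Spdef*, *Creb3l4* and *Insm1* (-1.38). The minor clone of male tumour 28 had the highest summed gastric and Brunner gland genes of all libraries (28297, against 5037 in its major clone). The part of these genes in the differences was not tested. Female tumour 20 had a similar mixture, with *Atoh1* and *Neurod1* (2.31) higher and *Insm1* (-1.24) and *Creb3l4* (-0.67) lower.

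Genes that act with these factors or mark their cells gave context, in lists chosen with earlier results known. Goblet products were positive in 17 of 17 tested genes, with 4 called higher in major clones and a median log2 difference of 0.57. They were *Klk1* (0.73, limma adjusted p = 0.0207), *Tpsg1* (0.67, adjusted p = 0.0207), the goblet peptide *Spink4* (0.63, adjusted p = 0.0238) and the secreted protein *Clca1* (0.70, adjusted p = 0.0465). Enteroendocrine products were positive in 20 of 21, with a median of 0.45, and 2 were called: *Chgb*, a granin of hormone granules (0.89, adjusted p = 0.0207), and *Tph1*, which makes the serotonin precursor (0.72, adjusted p = 0.0334). Paneth products were positive in 9 of 10 (median 0.34), and 0 were called by limma. The most abundant were *Lyz1*, which encodes lysozyme (0.19, adjusted p = 0.567), and the alpha-defensin *Defa24* (0.66, adjusted p = 0.130). Genes of absorptive cells lay in the same direction. Enterocyte genes were positive in 14 of 14 (median 0.39), with sucrase-isomaltase, *Sis*, called higher in major clones (1.10, adjusted p = 0.0439), and the most abundant, the apolipoproteins *Apoa4* and *Apoa1*, each at 0.20 (adjusted p = 0.537 and 0.505). Tuft products were positive in 7 of 11 (median 0.10) and stem cell genes in 5 of 11 (median -0.07), with 0 called by limma in either.

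Of 13 Notch ligands, receptors and targets, the ligand *Dll4* was called higher in major clones (log2 0.58, SE 0.14, limma adjusted p = 0.0444), and the median of the list was 0.04. *Hes1*, the Notch target that represses *Atoh1*, differed by -0.03 (adjusted p = 0.770), and *Mib1*, which activates Notch ligands, by 0.04 (adjusted p = 0.724). Among 8 other goblet and Paneth factors, *Creb3l1*, a relative of *Creb3l4*, was called higher (0.43, adjusted p = 0.0388), whereas *Xbp1*, a regulator of the secretory endoplasmic reticulum, differed by 0.07 (adjusted p = 0.543) and *Sox4* by -0.0044 (adjusted p = 0.985). Of 10 further enteroendocrine factors 8 were positive (median 0.22) and 0 were called by limma. *Hhex*, among the most abundant of them, had the lowest difference of this list (-0.52, adjusted p = 0.229).

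Other library measures moved with clone class. *Rn18s*, the 18S ribosomal RNA, took a share of the summed normalised counts that had a median of 1.24% in major and 6.19% in minor clones, and its log2 level was lower in the major clone of 15 of 20 tumours (-1.46, permutation p = 0.000570). Summed stroma and muscle genes were higher in 13 of 20 major clones (log2 0.49, p = 0.0448), with 3314 to 40446 against 3522 to 41359 normalised counts, and summed immune genes in 15 (0.40, p = 0.0246), with 3611 to 18980 against 1368 to 17514. Of 15 tested genes in each of these lists, 14 stroma and 15 immune genes had a positive difference and 0 were called by limma. Summed epithelial genes were higher in 13 tumours (0.13, p = 0.0486). Summed gastric and Brunner gland genes were higher in the major clone of 8 tumours and lower in 12 (log2 -0.39, permutation p = 0.122).

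With these measures as covariates beside the tumour block, chosen after seeing the data, the differences kept their direction and the calls were lost. The log2 difference of *Atoh1* was 0.74 with *Rn18s* (adjusted p = 0.251, limma), 0.56 with immune genes (adjusted p = 0.253) and 0.68 with stroma genes (adjusted p = 0.0746). That of *Neurog3* was 1.18 (adjusted p = 0.272), 0.77 (adjusted p = 0.322) and 0.96 (adjusted p = 0.1096). The number of factors called was 0 under each, while only 1, 1 and 6 genes of the whole table were called.

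The clone difference was not shown to depend on mouse or segment. Of 16428 genes 0 were called for a different clone gap in the male and the female mouse (limma, 7.65% at an unadjusted p below 0.05, among them 0 of the 8 factors). For *Atoh1* the gap differed by 0.02 between mice (interval -0.53 to 0.57) and for *Neurog3* by -0.31 (interval -1.23 to 0.62). Between SI10 and SI20, in the 17 divided tumours with both clones in the same of these segments, 0 of 16436 genes were called (4.06% unadjusted, again 0 of 8 factors), and the gap differed by 0.21 for *Atoh1* (interval -0.37 to 0.79) and -0.48 for *Neurog3* (interval -1.58 to 0.62). Tested within 1 mouse, neither factor was called, with log2 differences of 0.67 (female) and 0.70 (male) for *Atoh1* and of 1.08 and 0.77 for *Neurog3*.

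**Figure D3:**
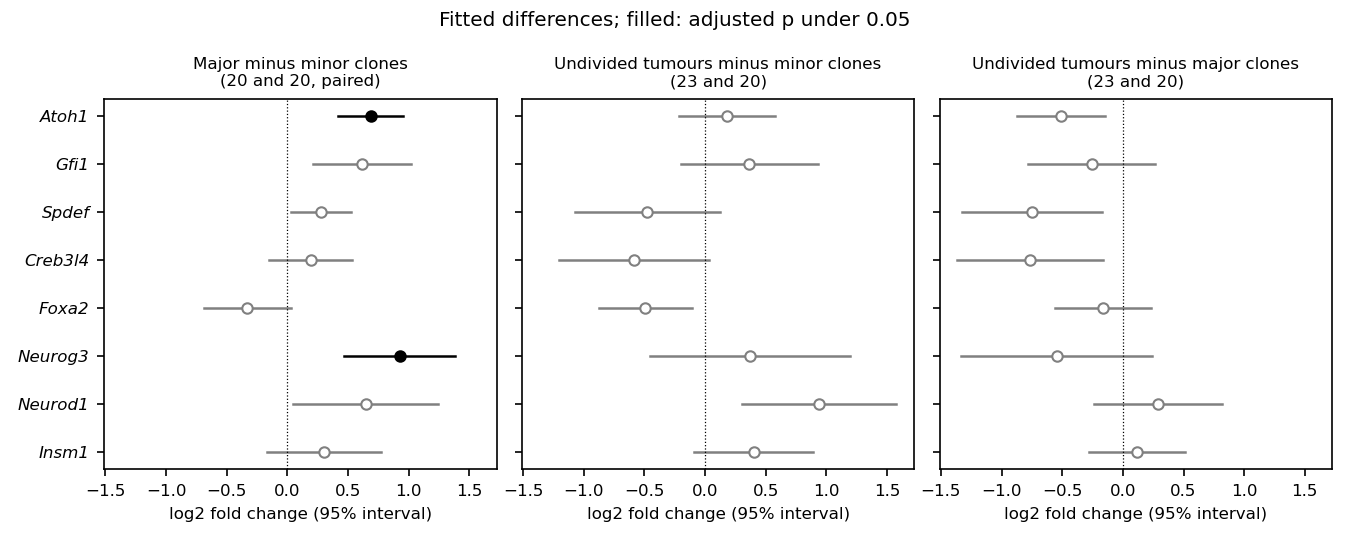
Fitted log2 fold changes of the 8 tested factors with 95% intervals from limma, for major minus minor clones (20 and 20, paired) and for undivided tumours minus minor and minus major clones (23 and 20). Filled black points passed an adjusted p of 0.05, and open grey points did not. Atoh1 (0.69) and Neurog3 (0.92) in the left panel are the filled points, of which Neurog3 was not called without the filter on low values.

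Undivided tumours were set against each class of clone. They are different tumours from the dissected ones, so the comparison is not paired. No factor was called in either comparison. Against minor clones 0 of 8 factors and 3.7% of 16491 genes were called (limma with mouse as a covariate), and 2 factors and 19.6% of genes had an unadjusted p below 0.05. Against major clones 0 of 8 factors and 0.0121% of 16510 genes were called, 2 genes in all, and 3 factors and 12% of genes had an unadjusted p below 0.05. Median differences of the 8 factors were 0.27 and -0.38, beside -0.01 and -0.01 over all genes.

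The enteroendocrine factor *Neurod1* was the nearest to a call against minor clones. It ranged from 6.87 to 79.3 normalised counts in undivided tumours (median 30.7), with a mean of 33.9 ± 20.3 (SD, n = 23) beside 17.2 ± 9.32 in minor clones (n = 20). The groups overlapped, and the log2 difference was 0.94 (SE 0.32, interval 0.30 to 1.58, limma adjusted p = 0.0798). *Neurod1* was called in 2 of 43 fits that each left out 1 library (adjusted p up to 0.121). These lacked undivided tumour 1 of the female mouse (1.02, adjusted p = 0.0493) or tumour 8 of the male mouse (1.02, adjusted p = 0.0477). *Foxa2* lay lower in undivided tumours (176 to 1013, median 350) by a log2 of -0.49 (interval -0.88 to -0.11, adjusted p = 0.134).

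Against major clones, the 3 factors nearest to a call were *Atoh1*, *Spdef* and *Creb3l4*, each lower in undivided tumours. *Atoh1* ranged from 46.4 to 345 normalised counts in undivided tumours (median 152), wider than either clone class, with a log2 difference of -0.51 (SE 0.18, interval -0.87 to -0.15, limma adjusted p = 0.313). *Spdef* ranged from 123 to 2996 (median 507), a difference of -0.75 (interval -1.32 to -0.17, adjusted p = 0.335), and *Creb3l4* from 135 to 2337 (median 332), a difference of -0.76 (interval -1.36 to -0.17, adjusted p = 0.343). The highest *Spdef* and *Creb3l4* values were both in male tumour 7 and the lowest both in male tumour 15. Among undivided tumours, summed gastric and Brunner gland genes were also highest in male tumour 7 (18568), and lowest in male tumour 2 (325). The part of these genes was not tested. *Neurog3* spanned 0 (male tumour 4) to 111 (male tumour 17) with a median of 10.5, so that its undivided range enclosed both clone classes.

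Some enteroendocrine products, enterocyte genes and immune genes were higher in undivided tumours than in minor clones. Of 21 enteroendocrine products, 9 were higher and 0 lower (median log2 difference 0.74), among them *Tph1* (1.13, limma adjusted p = 0.00862), *Chgb* (0.95, adjusted p = 0.0107), *Chga*, another granin (0.93, adjusted p = 0.0155), and the hormone gene *Sct* (0.83, adjusted p = 0.0232). Of 12 other enteroendocrine factors, 3 were higher, among them *Lmx1a* (1.10, adjusted p = 0.0295) and *Fev* (1.16, adjusted p = 0.0398). The goblet list had 1 of 17 higher (*Clca1*, 0.97, adjusted p = 0.0263) and a median of 0.00. Of 14 enterocyte genes, 3 were higher (median 0.44): the glucose transporter *Slc5a1* (1.197, limma adjusted p = 0.0107) and the brush border enzymes *Sis* (1.17, adjusted p = 0.0169) and *Treh* (1.07, adjusted p = 0.0206). Among the other marker lists, 3 of 15 immune genes (*Gzmb*, *Cd3e* and *Cd3g*, 0.83 to 0.94) and 1 of 9 epithelial genes (*Cldn7*, 0.28) were higher, while the endothelial gene *Cdh5* (-1.12), the neuronal gene *Tubb3* (-1.35) and the gastric gene *Gkn1* (-2.37) were lower. Against major clones 0 of 21 enteroendocrine products were called, as were 0 of 17 goblet products, whose median was -0.37.

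Along the intestine, 0 of 8 factors were called between SI10 and SI20. In undivided tumours (12 and 11 libraries) 0.17% of 16511 genes were called by limma, and 1 factor and 7.62% of genes had an unadjusted p below 0.05. That factor was *Neurod1*, with 8.30 to 79.3 normalised counts in SI10 (median 39.4) and 6.87 to 42.7 in SI20 (median 25.4), a log2 difference of 0.87 (interval 0.14 to 1.60, adjusted p = 0.587). *Spdef* differed in the other direction, with medians of 414 in SI10 and 799 in SI20 (log2 -0.82, interval -1.67 to 0.04, adjusted p = 0.667).

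In divided tumours, with the clones of a tumour averaged, 0.28% of 16436 genes were called, and 3 factors and 14.3% of genes had an unadjusted p below 0.05. Of the 8 factors, 7 were lower in SI10, with a median log2 difference of -0.58 beside -0.01 over all genes. Over the 7 tumours of SI10 and 10 of SI20 that entered, *Gfi1* had medians of 28.2 and 53.1 in major clones, and 21.96 and 32.03 in minor clones (log2 -0.80, interval -1.21 to -0.39, limma adjusted p = 0.121). Without male tumour 20 the log2 difference was -0.92 and the call was made (adjusted p = 0.0343), the 1 call in 17 fits that each left out 1 tumour. For *Atoh1*, major clones ranged from 122 to 284 in SI10 and from 185 to 331 in SI20, and minor clones from 51.8 to 144 and from 107 to 244 (log2 -0.60, interval -0.93 to -0.28, adjusted p = 0.140). *Spdef* differed by -0.81 (adjusted p = 0.285). The 10 Paneth products had a median of -1.45, with 10 of 10 negative and 0 called by limma. Of 17 goblet products (median -0.45), 1 was called, *B3gnt6*, a glycosyltransferase of mucin glycans, which was lower in SI10 (-1.63, adjusted p = 0.0184).

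Between the mice, *Insm1* was the 1 factor of 8 called in undivided tumours, where 19.1% of all genes were called and 10.3% were called higher in the male mouse. At an unadjusted p below 0.05 the count was 2 of 8, against 33.3% of all genes. Neither count was above the share over all genes, so the factors did not stand out between the mice. *Insm1* ranged from 9.31 to 44.8 normalised counts in the female (median 23.8, n = 10) and from 22.04 to 108 in the male mouse (median 48.7, n = 13), with some overlap. Means were 24.3 ± 9.93 and 49.3 ± 22.5 (SD), a log2 difference of 0.98 (SE 0.27, interval 0.41 to 1.54, limma adjusted p = 0.0152). The call was lost when libraries were shifted to equal epithelial genes (0.93, adjusted p = 0.0777). *Rn18s* also differed, with a median share of 2.61% (0.81% to 10.9%) in female and 7.24% (0.56% to 19.3%) in male undivided tumours. *Atoh1* was higher in the male mouse by 0.61 without passing (limma adjusted p = 0.115). It was called in 2 of 23 fits that each left out 1 tumour, without undivided female tumour 5 (0.76, adjusted p = 0.0462) or 9 (0.76, adjusted p = 0.0384). Among the lists, 9 of 21 enteroendocrine products were higher in the male mouse, led by *Ddc* (1.10, limma adjusted p = 0.000700), the hormone genes *Sst* (1.38, adjusted p = 0.00295) and *Ghrl* (1.15, adjusted p = 0.00833), and *Resp18* (1.13, adjusted p = 0.0148). Of 17 goblet products, 6 were higher, with *Rep15* (1.29), *Clca1* (1.40), *Tff3* (0.94) and *Zg16* (1.05) first by p, and *Retnlb* was lower (-2.56). Enterocyte genes were higher in 10 of 14, with *Treh* (2.04), *Apoa1* (1.297), *Fabp2* (1.66) and *Alpi* (1.49) first by p. Of the other factors, *Fev* was higher (1.39) and *Sox4* lower (-0.84), and of 13 Notch genes *Nrarp* was higher (0.48) and *Jag2* (-1.11) and *Rbpj* (-0.32) lower. The stem cell gene *Znrf3* (-0.79) and the endothelial genes *Cdh5* (-1.91), *Emcn* (-1.495) and *Kdr* (-1.27) were lower, as were 3 of 15 immune genes (*S100a8*, *S100a9* and *Cd14*, -2.84 to -1.05), while *Cd8a* (1.31) and the epithelial gene *Cdx2* (0.58) were higher. The part of these in the *Insm1* result was not tested.

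The factors were next correlated with each other on log2(normalised count + 1), over the 23 undivided tumours and over the 20 clone differences, as 72 pairs in all with Benjamini-Hochberg adjustment. The closest pair was *Spdef* and *Creb3l4*. Over undivided tumours Pearson's r was 0.91 and Spearman's rho 0.91 (permutation p = 1.00e-05 for each, the smallest that 100000 permutations can give, adjusted p = 0.000720). It was 0.92 in the 10 female and 0.94 in the 13 male tumours, and 0.88 without the 2 tumours farthest from the *Spdef* median. Over clone differences r was 0.85 (permutation p = 2.00e-05, adjusted p = 0.000720), with 0.75 in the female and 0.91 in the male mouse. Here rho was lower at 0.63 and did not pass (permutation p = 0.00335, adjusted p = 0.0804), and r was 0.71 without the 2 most distant tumours.

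**Figure D4:**
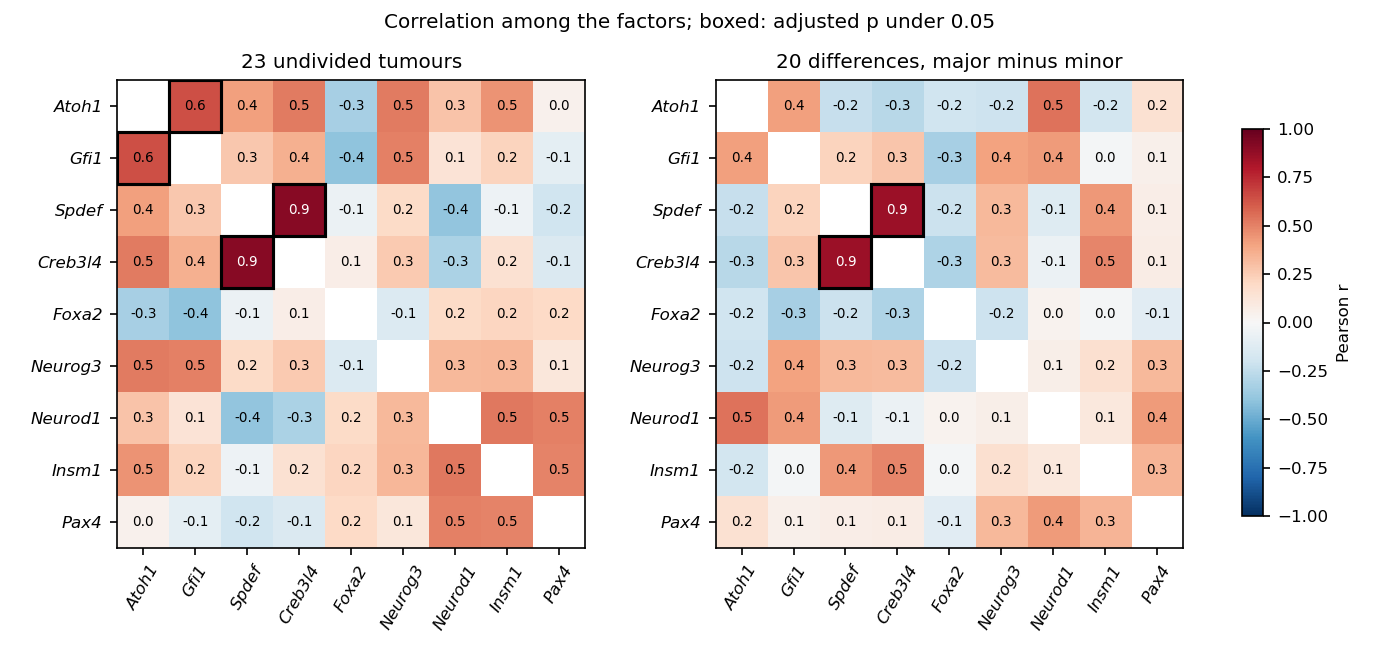
Pearson r between the factors over 23 undivided tumours (left) and over 20 clone differences (right), with colour from -1 to 1 and the rounded r in each cell. Boxes mark adjusted p under 0.05 for r. Spdef with Creb3l4 is boxed in both panels and Atoh1 with Gfi1 in the left panel.

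**Figure D5:**
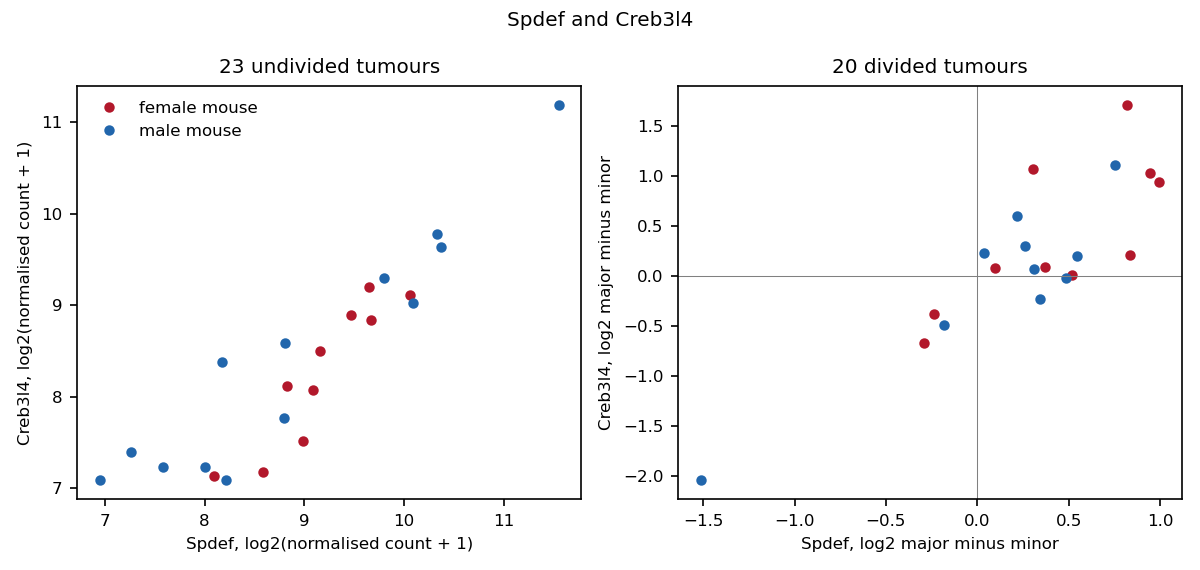
Spdef against Creb3l4, as log2(normalised count + 1) in 23 undivided tumours (left) and as the log2 difference of major minus minor clone in 20 divided tumours (right), coloured by mouse. Points follow a line in both panels (r = 0.91 and 0.85), with male tumour 28 alone at the lower left of the right panel.

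*Atoh1* and *Gfi1* were the other pair called in undivided tumours (r = 0.64, permutation p = 0.000870, adjusted p = 0.0209, and rho = 0.68, permutation p = 0.000500, adjusted p = 0.0180). The value was 0.64 in the female and 0.67 in the male mouse and 0.58 without the 2 most distant tumours. Over clone differences the same pair was not called. Of the 36 pairs, 26 were positive in undivided tumours and 22 over clone differences. *Atoh1* with *Neurog3* reached r = 0.52 in undivided tumours (adjusted p = 0.113), and *Neurod1* with *Insm1* 0.53, *Neurod1* with *Pax4* 0.51 and *Insm1* with *Pax4* 0.50 (adjusted p = 0.113 each), none of which passed. *Foxa2* was negative with *Atoh1* (r = -0.33, adjusted p = 0.377) and *Gfi1* (r = -0.40, adjusted p = 0.256), neither of which passed.

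Library measures moved with *Spdef* and *Creb3l4* in undivided tumours. Across a further 72 correlations of the 9 factors with *Rn18s* and with summed epithelial, stroma and immune genes, *Spdef* had r = -0.76 with *Rn18s* (rho = -0.76, permutation adjusted p = 0.00360 for r), with -0.32 in the female and -0.87 in the male mouse. *Creb3l4* had r = -0.72 with *Rn18s* (rho = -0.67, adjusted p = 0.00612). Both rose with summed stroma and muscle genes (r = 0.59 and 0.60, rho = 0.69 and 0.64, adjusted p = 0.0418 each), and *Spdef* with summed epithelial genes (r = 0.61, rho = 0.60, adjusted p = 0.0418). Over clone differences none of these measures passed for any factor. The part of these measures in the correlation of *Spdef* with *Creb3l4* was not tested.

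Levels in the clones of a tumour were correlated for some of these factors, and for others no correlation was called. Over the 20 tumours, the major with the minor clone gave r = 0.76 for *Spdef* (rho = 0.64, permutation adjusted p = 0.000540 and 0.0283 over 9 tests), with 0.70 in the female and 0.82 in the male mouse and 0.61 without the 2 most distant tumours. For *Creb3l4* r was 0.63 (rho = 0.52, adjusted p = 0.0117 and 0.0919), and 0.40 without the 2 most distant tumours. *Pax4* gave -0.54 (rho = -0.47, adjusted p = 0.0401 and 0.115) at values near 0. The factors that differed between clones were not called here, with r = 0.30 for *Atoh1* and 0.42 for *Neurog3* (adjusted p = 0.292 and 0.140). *Gfi1* gave 0.36 (permutation adjusted p = 0.216), and *Foxa2*, *Neurod1* and *Insm1* lay between -0.07 and 0.02. Clones of a tumour share the mouse and, but for female tumour 22, the segment, and the part of these was not tested.

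Over all 16511 genes with a mean of at least 10, the genes most like each factor were named by r over the 23 undivided tumours after centring within mice, as a description. *Spdef* was most like *Creb3l4* (0.93), *Gm44985* (0.92) and *Agr2* (0.92), and *Creb3l4* was most like *Spdef*, *Habp2* (0.93) and *Ern2* (0.92). *Atoh1* was most like *Galnt5* (0.90), *Larp1b* (0.83) and *Gm26761* (0.83), and *Gfi1* most like *Itln1* (0.78), *Ccl9* (0.77) and *Clps* (0.75). *Neurog3* was most like *Hexa* (0.87), *Lncppara* (0.85) and *Hes2* (0.78), *Neurod1* most like *Fam78a* (0.85), *Chgb* (0.84) and *B4galt5* (0.84), and *Insm1* most like *Defa38* (0.83), *Cyp2j9* (0.82) and *Car4* (0.82). *Foxa2* was most like *Ptpru* (0.84), *Frmpd1* (0.81) and *Cpm* (0.81). The libraries share mouse, depth and tissue composition, and *Spdef* with *Creb3l4* was the only pair of the 9 factors among these.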

How the data were processed

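Bulk RNA sequencing of 63 libraries was analysed. The deposited table gives a signal for each gene, as normalised counts that the authors made from Salmon 1.9.0 estimates (Gencode M30, GRCm39) after trimming with Trimmomatic 0.39, scaled between libraries. The scaling is not described further, the submitters' notes name DESeq2, and whole reads could not be recovered, so no count test was run. Depth was estimated per library from the value of 1 read, the peak of the density (bandwidth 0.05) of low log2 values. All sample columns were used, and 678 of 24766 genes have no symbol.

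Genes whose mean in a comparison reached 10 entered limma 3.58.1 (trend) in R 4.3.3 on log2(value + 1), with a pseudocount of 1, Benjamini-Hochberg adjustment over all genes tested and a threshold of 0.05. Tumour was the block for major against minor clones, mouse a covariate against undivided tumours, and mouse and segment terms were used for segments and mice. Pairing comes from the tumour numbers in the labels. Clones of the same tumour correlated across genes, after removal of class means, at a median of 0.262 (0.0253 to 0.618). The value was over 0.1 in 17 of 20 tumours. Between tumours the median was -0.0160 (-0.466 to 0.583). Of 20 major clones, 9 were most like their own minor clone. Differences between mice and segments were not removed. Single values and correlations used 100000 two-sided permutations. The members and lists were chosen with earlier results of these data known. The text names all 9 members, for each tested member the 3 genes most like it, and of each list up to 4 called genes. Between major and minor clones the 2 most abundant are named for lists of secretory cells, enterocytes and Notch genes with fewer than 2 calls. Marker lists of other cell types were meant as counts, and their called genes and *Retnlb* were named after their values were seen. Results of 1 listed gene are not reported here.

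On simulated data, limma with the tumour block called 82.1% of 95 genes changed by a log2 of 1 and 99.0% of 96 changed by 2, with 10 unchanged genes called among 16294. The simulated noise was independent between genes, and recovery was not split by level. It therefore does not give the recovery or false calls for low genes such as *Neurog3*, or under shifts shared by many genes. Alternatives were the pseudocount (0.1 and 5), the filter (none and a mean of 50), 3 scalings, no trend, no block, each mouse alone, segments and leaving out each tumour or library. Positions and promoters are from Gencode M39 on GRCm39. Further software was Python 3.11.15 with numpy 2.4.6, pandas 2.3.3, scipy 1.17.1 and matplotlib 3.10.9, and the R package data.table at version 1.17.8. Amplicon, staining and organoid data were not used here.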

Additional observations from a re-analysis of the deposited data

Results flagged for a closer look

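Values far from the rest of their group were looked for in 63 groups of 10 tumours or clones (Dixon's test at 95%), of which chance would mark about 1 in 20. In male tumour 19 the minor clone had the lowest level of 3 factors among the 10 male minor clones: *Gfi1* at 4.49 normalised counts (next 13.9), *Creb3l4* at 66.6 (next 277) and *Neurod1* at 0 (next 7.93), and its *Neurod1* difference of 4.83 was the highest (next 1.25). In male tumour 28 the differences of *Spdef* (-1.51, next -0.18) and *Creb3l4* (-2.04, next -0.49) were the lowest of the 10 male tumours. *Neurog3* in the major clone of female tumour 19 was 2.81 (next 10.3), the lowest of the female major clones, and *Pax4* in undivided female tumour 4 was 7.67 (next 1.93), the highest of the female undivided tumours.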

How the results depend on the processing

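Between major and minor clones 2 factors were called. The count was 1 without the filter on low values (*Neurog3* adjusted p = 0.0599), 1 with a mean of at least 50 (4 factors tested), 1 in SI10 and SI20 only (*Neurog3* adjusted p = 0.112), 0 in either mouse tested alone and 0 under each of the 3 covariates added after seeing the data. Without the tumour pairing (no replicate block) it was 0, with *Atoh1* at an adjusted p of 0.152 and *Neurog3* at 0.224. It stayed at 2 under both pseudocounts, the 3 scalings and limma without trend. Leaving out each tumour gave 1 to 3 factors and 25 to 859 genes. Quantile normalization changed the share of called genes that were higher in major clones from 58.5% to 38.7%, and equal epithelial genes to 6.70%, with a median of all genes of -0.14.

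Leaving out each library gave 0 to 1 factors for undivided tumours against minor clones, 0 throughout against major clones, 0 throughout for segments in undivided and 0 to 1 in divided tumours, and 1 to 2 between mice. Between mice the 1 factor called, *Insm1*, became 0 with a mean of at least 50, which removes it, and with equal epithelial genes (adjusted p = 0.0777). Of the correlations, 1 of the 2 in undivided tumours was called in each mouse when tested alone, and 0 of the 1 over clone differences in the female mouse.

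Uncalled values changed sign as follows. In the male mouse alone *Creb3l4* between clones was -0.029, *Gfi1* against major clones 0.078 and *Neurog3* between undivided segments -0.22. In the female mouse alone, *Atoh1* (-0.20), *Gfi1* (-0.12) and *Insm1* (-0.060) turned against minor clones, *Foxa2* (0.12) and *Insm1* (-0.63) against major clones, and *Gfi1* (0.0089) and *Creb3l4* (0.10) between segments. *Neurod1* between segments of divided tumours was 0.035 with a pseudocount of 5, 0.11 with equal epithelial genes and 0.30 in major clones only. Smaller samples or fewer genes enter the fits by mouse, segment and filter, and for the rest the cause was not tested. Of the other planned values of single factors, 457 kept direction and side of the threshold and 9 lost the call.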
